A study of Mus musculus with 9 samples.

Results

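Cytoplasmic ribosomal protein genes encode the protein part of the ribosome, and their mRNAs are among the most abundant of any dividing or quiescent cell. They were chosen here by symbol alone: Rps or Rpl followed by a number, with or without the letters a, x, l or y and a further number, together with Rpsa, Rplp0, Rplp1 and Rplp2. Pseudogenes were left out. The rule found 83 of the 31053 genes in the files, 32 of the small subunit and 51 of the large subunit, and it used no measured value. The genes lie on 19 chromosomes, 4 of them (Rps4x, Rpl39, Rpl10 and Rpl36a) on the X chromosome.

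The RNA of single Lin- cKit+ Sca1+ (LSK) cells, the bone marrow fraction that holds blood stem cells and multipotent progenitors, was sequenced from C57BL/6 mice, 1 library for each of 9 samples. The 3 young samples came from mice of 10 to 12 weeks and the 3 aged samples from mice older than 80 weeks, and both were injected with cyclodextrin, the carrier, only. The 3 CASIN samples came from aged mice that received CASIN, an inhibitor of the small GTPase Cdc42, intraperitoneally at 25 mg/kg in cyclodextrin, in 4 injections 24 h apart. All samples had been viably frozen and were thawed before 10x Genomics 3′ v3 libraries were made, in which a unique molecular identifier (UMI) marks each captured mRNA. The samples were sequenced in 2 batches: batch 1 comprised the first and second young sample, the first aged sample and the first and second CASIN sample, and batch 2 the other 4, young replicate 3, both remaining aged samples and CASIN replicate 3. The labels do not say whether a sample is 1 mouse or a pool, so p-values measure only the spread between these samples, which may be technical.

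After the study's cell filters 15856 of 32387 barcodes were kept, with 17555578 to 35118707 UMIs per sample, and 54 kept barcodes occurred in more than 1 library. The LSK genes Kit, Ly6a (which encodes Sca1), Ptprc and Cd34 were present in every sample, at 86.7 to 369 CPM (UMIs scaled to a common total per sample). Of single genes of other cells, Cd3e reached at most 0.338 CPM, Hbb-bs 5.48, C1qa 0.191 and Col1a1 0.395, while the granulocyte gene S100a8 ran from 1.54 to 167 CPM. Summed levels of 5 granulocyte genes were 3.02 to 28.3 CPM in batch 1 and 28.9 to 420 in batch 2, highest in aged replicate 3, and those of 5 red cell genes were 27.5 to 47.8 and 12.9 to 26.2. Lymphocyte (66.2 to 177 over all samples), macrophage (0.911 to 4.24) and stromal genes (3.62 to 24.2) overlapped between batches, and the part of other cells in the results was not tested.

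A ribosome joins a small subunit, which reads the mRNA, with a large subunit, which forms the peptide bond, and most of the proteins are part of every ribosome. Blood stem cells make less protein than most of their progeny, and raising or lowering that rate impairs them. Loss of a copy of any of several ribosomal protein genes causes Diamond-Blackfan anaemia, a failure of red cell formation, and loss of Rps14 contributes to the anaemia of 5q- myelodysplastic syndrome. Transcripts of these genes typically begin with a C and an unbroken run of pyrimidines, the 5′ terminal oligopyrimidine (TOP) motif, through which mTOR signalling sets their translation.

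Of the 83 genes, 8 (9.64%) had a principal GENCODE transcript that starts with C and at least 4 further pyrimidines, against 2.21% of 12541 other genes tested. With any annotated transcript counted, the figures were 20 genes (24.1%) and 4.45%. Of 23 genes named by role whose RefSeq starts were read (GRCm38.p6), 5 had a start of this kind and the others did not. The 5 are shown because the run at the start is the feature these genes are known to share. Each line gives 15 bases before and 15 bases from the annotated start, 5′ to 3′ on the gene's strand, and the capitals mark the run of pyrimidines from the first transcribed base.
Rpl35a, chr16:33056467-33056496, plus strand: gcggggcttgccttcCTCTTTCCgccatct
Rpl38, chr11:114668565-114668594, plus strand: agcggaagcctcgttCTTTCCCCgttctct
Rplp2, chr7:141447636-141447665, plus strand: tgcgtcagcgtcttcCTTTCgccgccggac
Rps10, chr17:27635230-27635259, minus strand: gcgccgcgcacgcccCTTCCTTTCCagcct
Rps27, chr3:90213634-90213663, minus strand: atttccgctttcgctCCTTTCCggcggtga
The runs were 5 to 10 bases long. Annotated starts can lie several bases from the start used in these cells, so a gene without such a run in the annotation may still have one.

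The 83 genes took 73411535 of 210816332 UMIs, or 34.8%. They filled 14 of the first 20 places and 70 of the first 100 when all genes were ordered by UMIs. 80 of them were seen in more than 50% of the cells and 76 in more than 99%. No single gene dominated: the 10 with most UMIs, led by Rps24, Rpl13, Rps29 and Rps20, held 21.9% of the group's UMIs. Per kilobase of principal transcript the highest mean levels were those of Rps29 (20733 CPM per kilobase), Rps27 (13026), Rplp1 (12751), Rpl36 (12724) and Rps21 (12657). A 3′ library counts captured molecules, whatever their length, so the order by UMIs and the order per kilobase differ. The order per kilobase also depends on the annotated length, taken from the longest of a gene's best-ranked transcripts. Pseudogene features named after these genes, 9 in all, held 0.0112% of all UMIs, and how reads were split between a gene and its unnamed copies cannot be seen in the counts.

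At the other end stood 3 genes known as testis or muscle paralogues. Rpl10l, the testis copy of Rpl10, had 6 UMIs in all cells. Rpl3l, the muscle copy of Rpl3, had 130. Rpl39l, the testis copy of Rpl39, had 155, and its level ran from 0 CPM in aged replicate 3 to 2.34 in aged replicate 1. Rpl10l was too low to be tested, so 82 genes entered the tests of all LSK cells, and Rpl3l and Rpl39l also fell under the filter on low counts in the tests of single subsets, which held 80.

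The share of UMIs in these genes was 36.4%, 37.9% and 32.0% in young replicates 1 to 3, 38.1%, 30.3% and 30.1% in aged replicates 1 to 3, and 37.3%, 38.1% and 32.2% in CASIN replicates 1 to 3. The 5 samples of batch 1 lay between 36.4% and 38.1% and the 4 samples of batch 2 between 30.1% and 32.2%, so the batches did not overlap while all 3 groups did. The means were 35.4% ± 3.06 (SD, n = 3) in young, 32.8% ± 4.59 (SD, n = 3) in aged and 35.9% ± 3.17 (SD, n = 3) in CASIN samples.

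**Figure D1:**
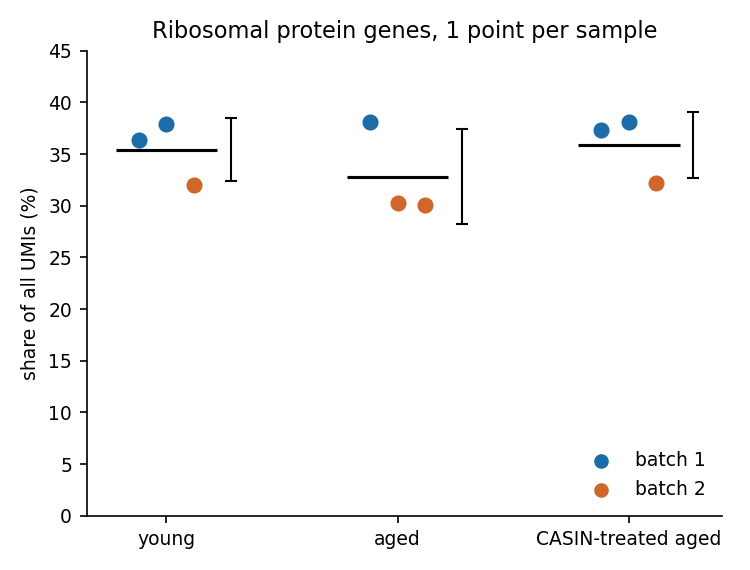
Share of all UMIs that fell in the 83 ribosomal protein genes, in percent, for each sample. Points are samples coloured by sequencing batch, horizontal lines are group means and bars are 1 SD. The points of batch 1 lie between 36.4% and 38.1% and those of batch 2 between 30.1% and 32.2% in every group.

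The difference of aged from young samples was -2.60 percentage points (two-sided exact permutation test, p = 0.4). CASIN samples were 3.04 points above aged ones (exact permutation p = 0.4) and 0.442 points above young ones (exact permutation p = 0.7). With 3 against 3 samples this test cannot go below 0.1. Aged samples hold 2 of the 4 batch 2 samples, and when groups were compared within batches the differences shrank. Aged minus young was -0.423 points (exact permutation within batches, p = 0.778), CASIN minus aged 0.813 points (exact p = 0.333) and CASIN minus young 0.391 points (exact p = 0.5). The smallest possible value is 0.111 in each of the first 2 comparisons. In the third, each of the 12 splits has a mirror image of equal absolute difference, so the smallest possible value lies above 0.0833. Within batch 1 the aged sample was 0.984 points above the mean of the young samples, and within batch 2 the aged samples were 1.83 points below the young one. CASIN minus aged was -0.440 points in batch 1 and 2.07 points in batch 2, and CASIN minus young was 0.544 and 0.237 points.

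Single cells of the 2 batches differed in spread as well as in level. The SD of the share over cells was 3.48 to 4.19 points in the samples of batch 1 and 5.07 to 7.45 points in those of batch 2. A cell with under 25% of its UMIs in these genes, a limit set after the distributions were seen, was rare in batch 1, with 0.454% to 1.67% of the cells of a sample. In batch 2 such cells made up 16.2% of young replicate 3, 16.02% of aged replicate 2, 29.5% of aged replicate 3 and 9.35% of CASIN replicate 3. In each of the 9 samples the cells under 25% had fewer UMIs and a higher mitochondrial percentage than the others: in aged replicate 3, for example, the medians were 7088 against 12258 UMIs and 8.36% against 4.85%. The level of Gm42418, a gene model that overlaps a ribosomal RNA repeat, was also higher in them in every sample, at 12313 against 4158 CPM in aged replicate 3. Across the cells of a sample, the share and the mitochondrial percentage had a Spearman coefficient of -0.426 to -0.709 in batch 2 and of -0.173 to 0.108 in batch 1, a description over cells that share a library and its depth. With these cells left out, aged minus young within batches was -0.004 points, where it was -0.423 with them. CASIN minus aged was then 0.200 points, where it was 0.813, and CASIN minus young 0.196 points, where it was 0.391. These cells were chosen by the share itself, so leaving them out raises the share of a sample by construction, and the smaller differences cannot show their part. The part of these cells in the differences between groups was not tested further.

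**Figure D2:**
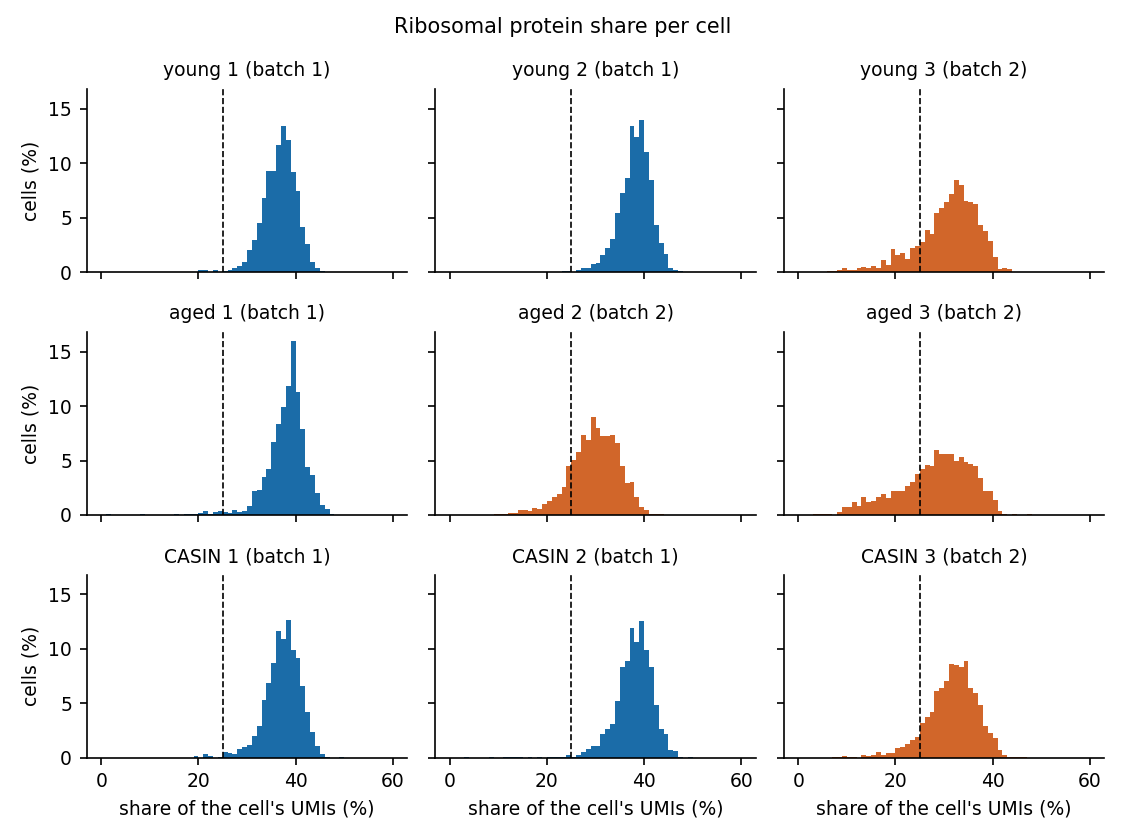
Distribution over cells of the share of a cell's UMIs in ribosomal protein genes (x axis, percent, bins of 1 point) for each sample, as a percentage of its cells (y axis). The dashed line is at 25%, and the 4 samples of batch 2 hold 9.35% to 29.5% of their cells left of it against 0.454% to 1.67% in batch 1.

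The low cells were not of a single type. In batch 2 they made up 9.71% of the HSC-1-like cells, 10.8% of the HSC-3-like, 15.8% of the cycling CC-2-like, 19.0% of the LMPP-like and 20.1% of the MPP2-like cells. They made up 22.1% of the largest cluster, which stayed unnamed, 33.3% of the 27 MP myeloid-like cells and 51.8% of the 56 cells of a small cluster led by Ebf1, Ly6c2 and Cd79a. In batch 1 they made up 22.2% of the cells of this small cluster and at most 1.82% of the cells of any other cluster.

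The batches differed gene by gene and in both directions. In a fit across 13642 genes with group and batch as terms, 55 of the 82 ribosomal protein genes were lower and 10 higher in batch 2 (edgeR quasi-likelihood test, Benjamini-Hochberg adjusted p below 0.05), against 37.6% of all genes lower and 34.3% higher. Their median log2 difference was -0.31, and that of all genes -0.08. The median SE was 0.06 for these genes and 0.13 for all genes, so the counts are not matched for precision. Nor are the counts matched for transcript length. With size factors or with a scale set by the other genes the counts were 52 lower and 10 higher, and the medians -0.26 and -0.24, where those of all genes were -0.03 and -0.01. Without the filter on low counts 45 were lower and 10 higher, with a median of -0.22 where that of all genes was -0.004. The ranges of CPM of the 2 batches did not overlap for 60 of the 82 genes, 50 lower and 10 higher, against 27.5% and 31.2% of all genes.

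Rps28 (GRCm38 chr17:33819027-33824562, minus strand), a small subunit protein near the mRNA exit, had the largest difference of those called. It had 4347, 5278 and 2143 CPM in the young samples, 7420, 1826 and 1967 in the aged samples and 6770, 7108 and 2177 in the CASIN samples. Every batch 2 sample was at or below 2177 and every batch 1 sample at or above 4347, and the log2 difference was -1.67 (adjusted p = 3.26e-06). Rpl27 (log2 difference -1.33), Rpl41 (-1.15), Rpl35 (-1.04), Rpl38 (-0.95), Rpl37 (-0.92), Rps29 (-0.88), Rps27 (-0.86) and Rpl36 (-0.86) followed. The 10 genes higher in batch 2 were Rpl5 (1.00), Rps15 (0.95), Rpl23a (0.84), Rps6 (0.55), Rpl17 (0.54), Rpl4 (0.48), Rpl12 (0.45), Rps14 (0.43), Rps12 (0.26) and Rpl14 (0.22). Rpl5, for instance, lay between 1020 and 1447 CPM in batch 1 and between 2461 and 2667 in batch 2.

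The batch difference was largest, by its median, among the shortest transcripts. Of the 10 genes with a principal transcript under 500 bases, 8 were lower in batch 2, none higher, and their median log2 difference was -0.84. Of 85 other genes of this length 68 were lower and 3 higher, with a median of -1.22. The medians of the next 4 length classes, up to 1000 bases, lay between -0.40 and -0.30, and those of other genes between -0.81 and -0.68. Of the 18 genes of at least 1000 and under 1500 bases, 9 were lower and 3 higher, with a median of -0.16. Of 1194 other genes of that length 746 were lower and 185 higher, with a median of -0.56. In every class under 1500 bases the median of other genes was thus the lower one. Of the 12 genes of 1500 bases or more 8 were lower and 2 higher, with a median of -0.26, so the medians did not rise steadily with the annotated length. Among 10571 other genes of that length 3256 were lower and 4170 higher, with a median of 0.08. Each length is that of the longest of a gene's best-ranked annotated transcripts, for example 5179 bases for Rps15a and 3706 for Rps20. It may exceed that of the transcript used in these cells, so the classes of long transcripts are uncertain. Across the 82 genes the Spearman coefficient of the batch difference with length was 0.349. It was 0.383 across 12529 other genes and 0.543 across 1209 others of at least 100 CPM, so the relation was not one of ribosomal protein genes alone. These are descriptions across genes, which are not independent replicates, and the relation was looked at after the batch differences had been seen.

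**Figure D3:**
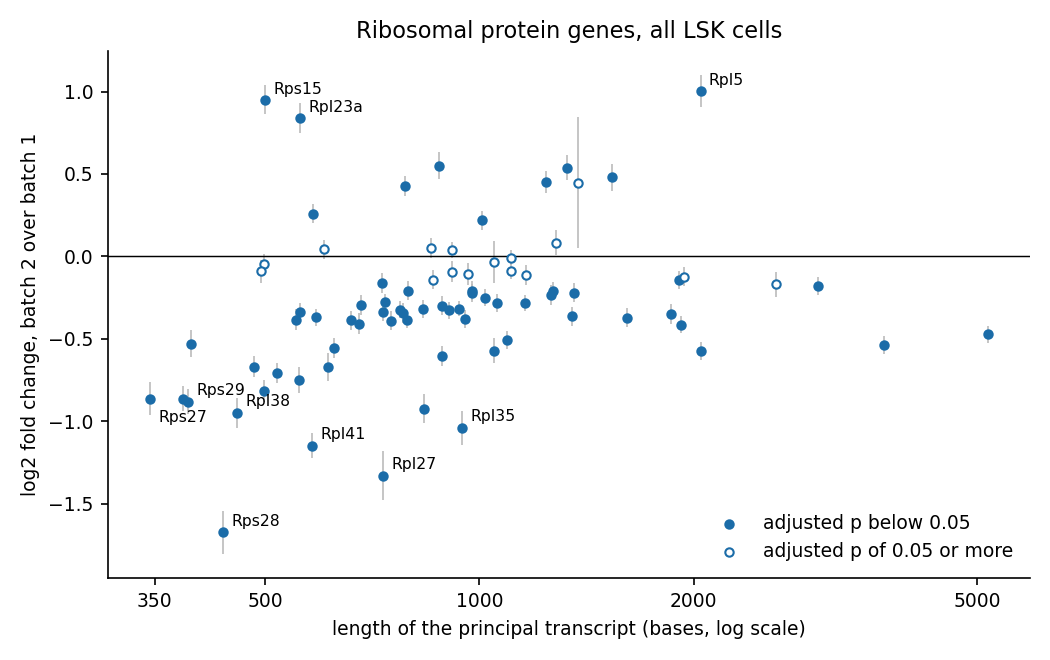
Log2 difference between batch 2 and batch 1 in all LSK cells (y axis, bars are 1 SE) against the length of the principal transcript (x axis, bases, log scale), 1 point per ribosomal protein gene, without Rpl39l and Rpl10l. Filled points passed an adjusted p of 0.05. Rps28 lies lowest at -1.67 and Rpl5 highest at 1.00, and the points under 500 bases have a median of -0.84.

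With the batch in the model, no ribosomal protein gene passed the test for age or for CASIN in all LSK cells. For aged against young, 0 of 82 passed an adjusted p of 0.05 in edgeR's quasi-likelihood test, against 4.10% of all 13642 genes, 490 higher and 70 lower. 6 of the 82 had an unadjusted p under 0.05, all of them lower in aged samples, against 22% of all genes. For CASIN against young the count was 0 of 82 against 4.27% of all genes, with 6 at an unadjusted p under 0.05, 1 of them higher in CASIN samples, against 24% of all genes. For CASIN against aged it was 0 of 82 against 0% of all genes, since no gene passed, with 0 of 82 and 439 of all genes (3.22%) at an unadjusted p under 0.05. DESeq2's Wald test called 1, 2 and 0 ribosomal protein genes in these comparisons, all lower than in young samples, where 2.48% and 2.97% of all genes were lower in the first and second. The median log2 fold changes were -0.03, -0.02 and 0.02 in the same order, where those of all genes were 0.02, -0.00 and -0.01.

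The median SE of a ribosomal protein gene's log2 fold change was 0.07 in the 3 comparisons, against 0.16, 0.15 and 0.16 for all genes. The 95% interval lay within 0.5 log2 units on either side of 0 for 79 of 82 genes in aged against young and in CASIN against young, and for 80 of 82 in CASIN against aged. A p that misses the threshold does not show that levels were equal, and for these genes a difference above 0.5 log2 units lies outside the interval.

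Rps2 (chr17:24718116-24721929, plus strand), a core protein of the small subunit, came closest to the threshold. Its level was 6434, 6342 and 4954 CPM in the young samples, 5701, 4220 and 3794 in the aged samples and 5698, 5808 and 4277 in the CASIN samples. Within each batch the young samples were the highest, and aged against young gave a log2 fold change of -0.22 (SE 0.07, adjusted p = 0.0864) and CASIN against young -0.19 (SE 0.06, adjusted p = 0.118). Rpl7a, of the large subunit, had 1713, 1686 and 1801 CPM in young, 1493, 1644 and 1651 in aged and 1516, 1481 and 1617 in CASIN samples. All 3 young samples lay above the other 6, with log2 fold changes of -0.15 (adjusted p = 0.177) for aged and -0.19 (adjusted p = 0.0873) for CASIN against young. Rpl29 (log2 fold changes of -0.17 and -0.16) and Rpl7l1 (-0.22 and -0.23) were also among the 5 genes with the lowest p in both of these comparisons, which share the young samples, with adjusted p-values of 0.152 to 0.194. The remaining ones were Rpl10 for aged against young (-0.18, adjusted p = 0.171) and Rpl23a for CASIN against young (0.25, adjusted p = 0.180). For CASIN against aged the 5 were Rps25 (0.10), Rpl39l (-1.01, SE 0.94), Rps12 (0.07), Rplp2 (0.08) and Rps27l (-0.07), each with an adjusted p of 0.987.

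Rplp0, Rplp1 and Rplp2 form the acidic stalk of the large subunit that recruits elongation factors. Their log2 fold changes were -0.08, -0.10 and -0.02 for aged against young and 0.05, 0.03 and 0.08 for CASIN against aged, with adjusted p-values of 0.456 or more. Rpsa, a small subunit protein also known as the laminin receptor, had 7306, 7376 and 6466 CPM in young, 6393, 6541 and 6264 in aged and 6303, 6655 and 6562 in CASIN samples. The young samples of batch 1 were the highest of all, and the log2 fold changes against young were -0.11 (adjusted p = 0.398) for aged and -0.13 (adjusted p = 0.265) for CASIN samples.

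Among the genes mutated in Diamond-Blackfan anaemia, the most often affected one, Rps19, had 6903, 7029 and 5723 CPM in young, 6877, 5576 and 5552 in aged and 6577, 6993 and 6055 in CASIN samples, with a log2 fold change of -0.03 for aged against young (95% interval -0.17 to 0.11, adjusted p = 0.808) and 0.02 for CASIN against aged (-0.12 to 0.16, adjusted p = 0.993). Rpl5 and Rpl11, which with 5S rRNA can hold back Mdm2 and so raise p53, gave -0.05 and -0.06 for aged against young. Rps24, Rps7, Rps26, Rps10 and Rpl35a lay between -0.107 and -0.001 in the same comparison, with adjusted p-values of 0.416 or more. Rps14 gave 0.04 and Rpl38, whose loss alters the translation of Hox mRNAs, gave 0.20 (SE 0.11, adjusted p = 0.313). Rps27 and Rps28, also reported in the disease, gave 0.21 (adjusted p = 0.342) and 0.24 (adjusted p = 0.383) for aged against young in all LSK cells, and both passed the test in HSC-1-like cells of CASIN against young samples.

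Leaving out 1 sample brought calls. Without young replicate 3, the only young sample of batch 2, Rps28 (log2 fold change 0.52, adjusted p = 0.0455), Rpl27 (0.46, adjusted p = 0.0273) and Rps21 (0.38, adjusted p = 0.0410) were higher in aged than in young LSK cells, and Rps28, Rps21, Rpl38 and Rpl27 were higher in CASIN than in young cells (0.33 to 0.56, adjusted p = 0.0216 to 0.0481). These were 3 and 4 of 82, where 5.91% and 7.97% of all 13905 genes then tested were higher, so neither share was above the background. The remaining comparison with young then rests on batch 1, where Rps28 had 4347 and 5278 CPM in young samples against 7420 in the aged and 6770 and 7108 in the CASIN samples, while in batch 2 it had 2143 against 1826, 1967 and 2177.

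Cells were also compared within the 2 largest named subsets, clustered without the ribosomal protein genes. HSC-1-like cells (3190 cells, named by Procr, Sult1a1, Nupr1, Meg3, Vwf and other stem cell genes) and LMPP-like cells (3217 cells, named by Dntt, Satb1, Flt3 and Il7r, genes of lymphoid-primed progenitors) entered the same model. In HSC-1-like cells 0 of 80 ribosomal protein genes passed for aged against young, against 7.79% of 11314 genes, with 6 at an unadjusted p under 0.05 (21.8% of all genes). Up to 2 were called under another setting, a count given without the share of all genes under that setting. For CASIN against aged 0 of 80 passed against 0% of all genes, with 0 at an unadjusted p under 0.05 (3.83% of all genes). In LMPP-like cells the counts were 0 of 80 in all 3 comparisons, against 0.297% of 11109 genes for aged against young, 0% for CASIN against aged and 0.126% for CASIN against young, with 1, 0 and 2 at an unadjusted p under 0.05 (9.88%, 5.13% and 6.19% of all genes). DESeq2's Wald test called no ribosomal protein gene in these 5 comparisons.

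For CASIN against young in HSC-1-like cells 3 of 80 passed, all higher in CASIN samples, where 12.7% of all 11314 genes passed and 7.38% were higher. The share of ribosomal protein genes called, 3 of 80, was thus below the background. The 3 were Rps28 (log2 fold change 0.43, SE 0.12, adjusted p = 0.0319), Rps27, a zinc finger protein of the small subunit (0.32, SE 0.10, adjusted p = 0.0463), and Rpl23a, which lies at the exit tunnel of the large subunit (0.30, SE 0.09, adjusted p = 0.0479). Rps28 had 4758, 5764 and 2199 CPM in young, 7857, 1934 and 2054 in aged and 7498, 7623 and 2343 in CASIN HSC-1-like cells. CASIN samples were above young ones within both batches, while the ranges over both batches overlapped. With edgeR's TMM scaling the differences were 0.56 log2 units in batch 1 and 0.21 in batch 2. The CPM given here lack that scaling and differ less in batch 2, which holds 1 sample of each of these groups. Rps27 had 4865, 6025 and 3663 CPM in young and 6832, 7110 and 3848 in CASIN samples, and Rpl23a 754, 711 and 1528 in young and 988, 882 and 1538 in CASIN samples. All 3 also differed between the batches, and aged replicate 1, the aged sample of batch 1, lay with the CASIN samples of its batch for Rps28 (7857) and Rps27 (7070).

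These calls were not stable. Rps28 was called in 14 of 21 settings, Rpl23a in 8 and Rps27 in 7, and each kept its sign in all 21. None of the 3 genes passed without young replicate 1, without young replicate 2, without CASIN replicate 1, without CASIN replicate 2, without a batch term or with the clusters of a finer resolution. Without young replicate 3 the count rose to 6 of 80, all higher in CASIN samples, where 6.95% of all genes were higher.

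The share also differed between LSK subsets of the same sample. In HSC-1-like cells the share was 38.1%, 39.7% and 32.0% in young, 39.1%, 30.9% and 30.5% in aged and 38.7%, 38.8% and 33.1% in CASIN samples. Compared with all other cells of the same sample it was higher in 9 of 9 samples, by a median of 1.12 points. The difference ran from 0.023 points in young replicate 3, where it was next to none, to 1.945 in young replicate 2. HSC-3-like cells, led by MHC class II genes, and LMPP-like cells were also above the rest in 9 of 9 samples, by medians of 1.38 and 1.21 points. Between LMPP-like and HSC-1-like cells no order held, with LMPP-like cells lower in 3 of 9 samples, and in 7 of 9 when mitochondrial UMIs were left out of the total. HSC-2-like cells, led by Fos, Fosb, Jun and Egr1, were below the rest in 3 of 9 samples, and 703 of their 829 cells came from batch 1.

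Cycling CC-2-like cells (1575 cells, led by histone genes and by Ube2c, Ccnb1 and Cenpf) and MPP2-like cells (725 cells, led by Pf4 and Itga2b, genes of the megakaryocyte lineage) were below the rest in 9 of 9 samples. The share in CC-2-like cells was 33.6%, 35.3% and 31.4% in young, 34.5%, 29.3% and 29.5% in aged and 34.1%, 36.1% and 30.01% in CASIN samples, and the median difference from the rest was -2.63 points. They had a median of 23830 UMIs per cell, against 9704 in HSC-1-like cells. For MPP2-like cells the median difference was -1.85 points. The lowest share was that of a cluster of 128 cells led by Ebf1, Ly6c2 and Cd79a, with 29.1%, 28.99% and 28.05% in young, 29.4%, 24.7% and 26.0% in aged and 29.3%, 33.1% and 26.1% in CASIN samples. It was below every other cluster in 9 of 9 samples, with a median difference of -6.24 points from the rest. Its values rest on 7 to 25 cells per sample. MP myeloid-like cells, 82 in all with a median of 2536 UMIs, were below the rest in 8 of 9 samples. The subsets come from the same libraries, so these counts of samples are a description with no test.

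**Figure D4:**
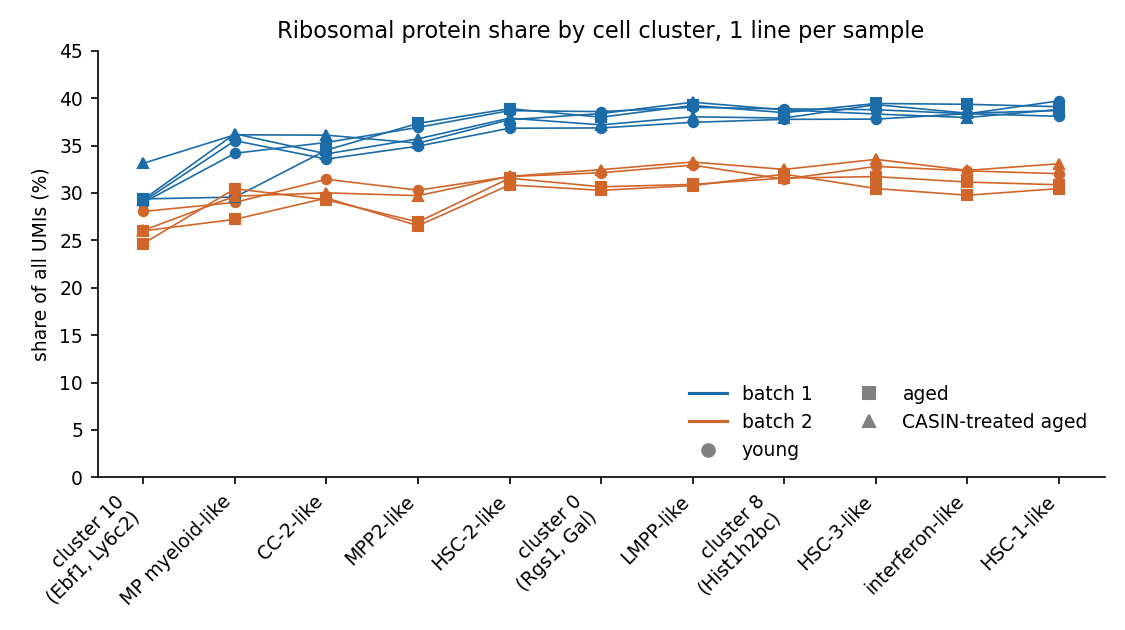
Share of UMIs in ribosomal protein genes, in percent, by cell cluster (x axis, ordered by the median over samples), 1 line per sample, coloured by batch and with a marker for the group. The lines of batch 1 run above those of batch 2 in every cluster except the MP myeloid-like one, and the cluster led by Ebf1 and Ly6c2 is lowest in all 9 samples.

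Behind the similar shares of HSC-1-like and LMPP-like cells, single genes went both ways. Over genes of at least 10 CPM on average, with 10 added on the log2 scale, 28 of 80 ribosomal protein genes were higher in LMPP-like cells in 9 of 9 samples, against 18.3% of 7941 genes, and 21 were lower, against 17.4%. The median log2 ratio was 0.01, as for all genes. The ribosomal protein genes had at least 87.6 CPM on average in all LSK cells, while the background began at 10 CPM. The counts in this paragraph are therefore not matched for counting error, which is smaller for abundant genes. From HSC-1-like to MPP2-like cells 7 were higher in 9 of 9 samples, against 16.2% of all genes, and 46 lower, against 8.79%, with a median of -0.11 where that of all genes was 0.05. From LMPP-like to CC-2-like cells 6 were higher, against 22.1%, and 47 lower, against 15.3%, with medians of -0.11 and 0.01. Rpl41 was among the few that were higher in both, by a median of 0.27 log2 units in MPP2-like over HSC-1-like cells and 0.12 in CC-2-like over LMPP-like cells, in 9 of 9 samples each. Rpl5, Rpl38 and Rps14 were lower in LMPP-like than in HSC-1-like cells in 9 of 9 samples (medians -0.19, -0.10 and -0.13), while Rps24, Rpsa and Rplp0 were higher (0.11, 0.23 and 0.11).

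Paralogue pairs gave the clearest contrast. Rps27 and Rps27l (chr9:66946086-66949516, plus strand) encode nearly the same protein, and Rps27l is known as a p53 target. Rps27 was lower and Rps27l higher in 9 of 9 samples in all 3 comparisons: by medians of -0.20 and 0.36 log2 units in LMPP-like over HSC-1-like cells, -0.44 and 0.51 in MPP2-like over HSC-1-like cells, and -0.39 and 0.23 in CC-2-like over LMPP-like cells. For every 100 UMIs of Rps27, HSC-1-like cells held 7.02, 5.50 and 5.92 UMIs of Rps27l in young, 4.72, 5.78 and 5.03 in aged and 4.94, 4.19 and 5.25 in CASIN samples. CC-2-like cells held 14.8, 10.8 and 10.3 in young, 12.9, 11.8 and 11.3 in aged and 12.1, 10.5 and 12.4 in CASIN samples, and their ranges did not overlap. The medians of LMPP-like (7.796) and MPP2-like cells (9.68) lay between. Both genes differed between batches, by -0.86 and -0.82 log2 units. Within each of the 9 samples the ratio rose from HSC-1-like to LMPP-like and then to MPP2-like cells. CC-2-like cells were above MPP2-like cells in 8 of 9, the exception being aged replicate 2 (11.8 against 12.5). A low ratio was not particular to HSC-1-like cells. HSC-2-like cells held 7.02, 5.41 and 4.37 in young, 4.24, 4.85 and 4.60 in aged and 4.68, 3.94 and 5.19 in CASIN samples, below the HSC-1-like cells of each sample.

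Rpl22 and Rpl22l1 behaved otherwise. Rpl22 (chr4:152325742-152334071, plus strand) is needed for T cell development and restrains Rpl22l1 (chr3:28805436-28807424, plus strand), whose protein can take its place. Rpl22 was higher and Rpl22l1 lower in LMPP-like than in HSC-1-like cells in 9 of 9 samples (medians 0.24 and -0.22), and from LMPP-like to CC-2-like cells both turned round in 9 of 9 samples (-0.20 and 0.12). For every 100 UMIs of Rpl22, HSC-1-like cells held 65.7, 58.8 and 69.3 UMIs of Rpl22l1 in young, 67.1, 75.3 and 73.1 in aged and 69.2, 68.9 and 73.0 in CASIN samples. LMPP-like cells held 47.9, 46.3 and 55.7, then 44.3, 55.4 and 57.6, then 44.9, 48.0 and 54.8. The 2 ranges did not overlap. A high ratio was not particular to HSC-1-like cells: HSC-2-like (56.9 to 80.2), MPP2-like (51.8 to 74.0) and CC-2-like cells (53.7 to 75.8) overlapped with them. Within samples MPP2-like cells were below HSC-1-like cells in 9 of 9. Between batches Rpl22 and Rpl22l1 differed by -0.57 and -0.38 log2 units.

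**Figure D5:**
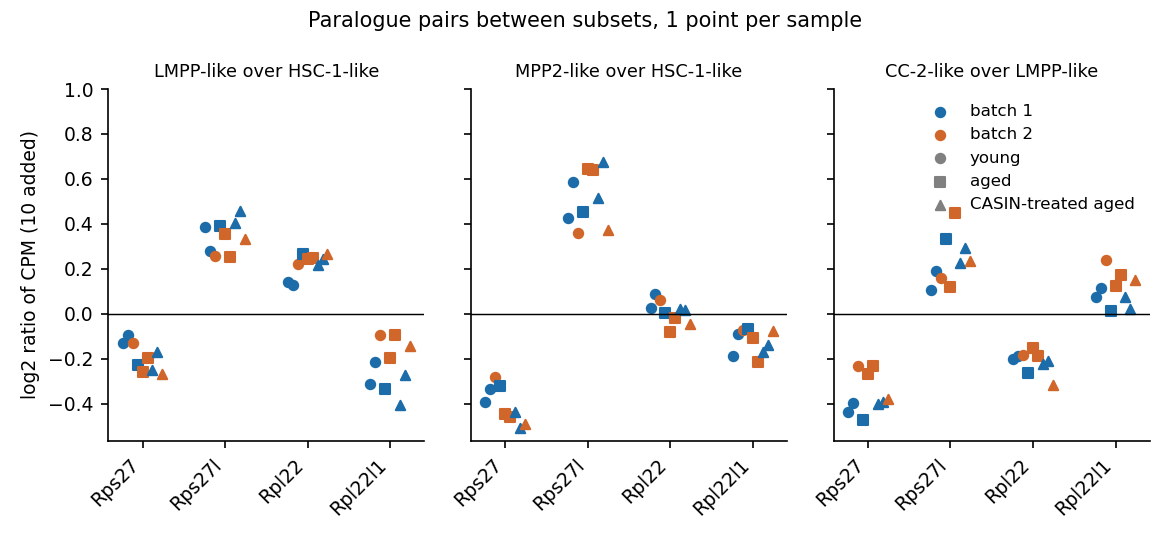
Log2 ratio of CPM between 2 subsets (y axis) for Rps27, Rps27l, Rpl22 and Rpl22l1 in each of the 9 samples, coloured by batch, with a panel for each pair of subsets. Rps27 lies below 0 and Rps27l above 0 in every sample of the 3 panels, and Rpl22 and Rpl22l1 lie on opposite sides of 0 in the panels LMPP-like over HSC-1-like and CC-2-like over LMPP-like.

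The other pairs were uneven. Rpl7l1, which works in ribosome assembly rather than in the mature ribosome, held 2.50 to 3.37 UMIs for every 100 of Rpl7 across samples, and more in CC-2-like than in LMPP-like cells in 9 of 9 samples. Rpl3l was almost absent, with 43 UMIs in the 3217 LMPP-like and 3 in the 3190 HSC-1-like cells. Rpl39l had 35 and 33 UMIs in these subsets, and Rpl10l 1 in each.

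Genes that build, feed or control the ribosome were read from the same fit. Of 44 ribosome biogenesis genes, 0 passed edgeR's test in all LSK cells for aged against young, CASIN against young or CASIN against aged, with 3, 8 and 2 at an unadjusted p under 0.05. Over all genes 4.10%, 4.27% and 0% passed, and 22%, 24% and 3.22% had an unadjusted p under 0.05. Of 20 translation factors 0 passed, with 2, 7 and 0 such genes in the same order, and of 78 mitochondrial ribosomal protein genes 0 passed, with 21, 25 and 0. Of 18 mTOR and Myc regulators 1 passed, Mycn, which was higher in aged than in young cells (log2 fold change 0.85, SE 0.17, adjusted p = 0.0279). Its difference between batches was far larger (-4.37 log2 units, batch 2 over batch 1). Without the batch term 0 of all genes passed in this comparison, so this call, like every other one in it, depends on that term. Of 10 genes of the p53 pathway 0 passed, with 4, 2 and 1 at an unadjusted p under 0.05, and of 4 ribosomal protein genes whose symbols lie outside the rule 0 passed, with 0, 1 and 1. These lists were read in edgeR's fit only. In HSC-1-like cells, where 7.79% of all genes passed for aged against young, 1 of 44 biogenesis genes, 0 of 20 translation factors, 1 of 18 mTOR and Myc regulators (Mycn) and 1 of 9 genes of the p53 pathway passed. There the nucleolar protein gene Npm1 was lower in aged than in young samples (-0.31, SE 0.09, adjusted p = 0.0407), and Cdkn1a, the p53 target that halts the cell cycle, was higher (0.97, SE 0.15, adjusted p = 0.00129). Batch 2 differed from batch 1 in these cells by 2.46 log2 units for Cdkn1a and by -5.49 for Mycn. Between batches, 61 of 78 mitochondrial ribosomal protein genes were lower and 5 higher in batch 2, against 37.6% and 34.3% of all genes, with a median log2 difference of -0.70 where that of the cytoplasmic genes was -0.31.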

How the data were processed

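Single-cell RNA libraries of 9 LSK samples were analysed from the authors' deposited counts, which are whole UMIs per gene and barcode made with Cell Ranger 3.1.0 on mm10 (Ensembl annotation) and not normalized. Cells needed at most 10% mitochondrial UMIs, 1000 to 40000 UMIs, at most 6000 genes and a gene number within 0.4 (natural log) of that predicted by their UMIs, which kept 15856 cells and 17555578 to 35118707 UMIs per sample. Integration and clustering used Seurat 5.3.0 (R 4.3.3) and 2000 features, fewer than in the study for memory, without the ribosomal protein genes, and clusters were named "-like" by fixed markers. Scrublet marked 67 cells, 0.423%, too few to have worked, so doublets stayed in and the cells with the highest 5% of scores were left out as an alternative.

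UMIs summed per sample were tested with edgeR 4.0.16 (quasi-likelihood, TMM, filterByExpr, group and batch, all 9 samples, Benjamini-Hochberg over all genes, threshold 0.05). DESeq2 1.42.0 was an alternative. Two-sided exact permutation tests compared shares, and intervals are 95%. Levels are CPM, computed from these sums over all genes. Of these steps, only edgeR's test of aged against young in all LSK cells was tried on simulated data.

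Members, lists and tests were chosen with earlier results of these data known. Named are genes fixed by role, and per comparison up to 10 called genes with the same direction in both batches or otherwise among the 5 with the lowest p. Transcript lengths and starts are from GENCODE M21 (GRCm38), with the longest of the best-ranked transcripts taken as the principal one. RefSeq start sequences were matched for 63 of 83 genes, 75.9%, under the 80% set for a comparison with other promoters, so that check is void. Some genes are not reported here. Samples with the same replicate number were not paired by the labels.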

Additional observations from a re-analysis of the deposited data

Results flagged for a closer look

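The share of UMIs in ribosomal protein genes moved in opposite directions with age in the 2 batches. In batch 1 the aged sample was 0.984 percentage points above the mean of the 2 young samples and above each of them, and in batch 2 both aged samples were below the young sample, with a mean difference of -1.83 points. CASIN against aged was opposite as well, with -0.440 points in batch 1 and 2.07 points in batch 2. The batch 1 difference was small: the aged sample had 38.125% and the CASIN samples 37.291% and 38.081%. The 2 young samples of that batch, at 36.379% and 37.905%, lay further apart. The difference between batches was not tested, and each batch holds a single sample on at least 1 side of these comparisons. The percentage of cells with under 25% of their UMIs in these genes was 16.2% in young replicate 3, 16.02% and 29.5% in aged replicates 2 and 3 and 9.35% in CASIN replicate 3, so aged replicate 2 had a lower share of UMIs than the young sample of its batch but no more of these cells. With these cells left out, aged minus young was 1.06 points in batch 1 and -1.07 points in batch 2. CASIN minus aged was then -0.509 and 0.908 points. Since the cells were chosen by the share itself, these values cannot show their part in the difference, which was not tested further.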

How the results depend on the processing

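The numbers of ribosomal protein genes called changed as follows, where the cause was not tested. With DESeq2's Wald test 1 was called in all LSK cells for aged against young and 2 for CASIN against young, all lower, where 2.48% and 2.97% of all genes were lower. For CASIN against young in HSC-1-like cells, 3 were called as reported, 1 each with DESeq2's size factors, with a scale set by the other genes, with the Wald test, with only the 2 groups in the fit and with cells thinned to 4000 UMIs, 6 without the filter on low counts, 0 without a batch term and 0 with the clusters of resolution 0.8. Without the filter 2 were called for aged against young in HSC-1-like and 1 for CASIN against young in LMPP-like cells. Leaving out each sample in turn gave 0 to 3 (aged against young) and 0 to 4 (CASIN against young) in all LSK cells, 0 to 2 and 0 to 6 in HSC-1-like cells, and 0 in all other comparisons. Except for CASIN against young without young replicate 3, no share of all genes is given for the alternatives in HSC-1-like and LMPP-like cells. Whether the counts there exceed that share cannot be read from them. The difference in the share of UMIs between whole groups, which batch is mixed into, kept its sign under every alternative for aged against young and for CASIN against aged, with leave-one-out ranges of -5.25 to -1.24 and 1.68 to 5.69 points, and for CASIN against young ran from -1.27 to 2.26 points and was -0.821 points over all deposited barcodes. Within batches aged minus young turned from -0.423 to 0.191 points with a mitochondrial limit of 5%, and CASIN minus young from 0.391 to -0.873 points over all deposited barcodes. LMPP-like minus HSC-1-like cells became -0.48 points without mitochondrial UMIs in the total. Of the values of named genes, 7 changed sign: in all LSK cells for CASIN against aged, Rpl39l (0.32 without aged replicate 1, range -1.48 to 0.32), Rps12 (-0.017) and Rps27l (0.22) without a batch term, without a batch term also Rps28 for aged against young in HSC-1-like (-0.054) and LMPP-like cells (-0.071), and without CASIN replicate 3 Rps18 in HSC-1-like (-0.009, range -0.009 to 0.174) and Rpl13 in LMPP-like cells (-0.033, range -0.033 to 0.153) for CASIN against aged. Over all genes in all LSK cells, 490 were higher and 70 lower in aged than in young samples, 797 and 338 with the Wald test, 834 and 214 without the filter, 0 without a batch term and 73 and 7 with the replicate block. For CASIN against young these were 519 and 63, 864 and 405, 964 and 155, 0, and 313 and 47. The labels do not pair samples by replicate number, and the numbers cross the batches. Deviations from group means correlated at 0.726 to 0.892 between samples of the same number and batch. They correlated at -0.614 and -0.604 between aged replicate 2, of batch 2, and the other replicates 2, of batch 1. Since these values follow the batches, they cannot show whether the numbers pair the samples. With the replicate block 1 gene was called for CASIN against young in HSC-1-like cells and 0 in the 8 other comparisons. Among 253 alternatives to the main results, 230 stayed close to the reported value and 23 moved. Close meant a number of called genes that was equal or within a fixed ratio. For a difference in share it meant a move of less than an SD over samples, and no p-value entered this rule. Between groups this SD was 4.59 points, or 3.17 for CASIN against young. The differences themselves were smaller in size (-2.60, 3.04 and 0.442 points). They could vanish or change sign and still count as close, so for group shares the count does not measure stability. Counting error was small for most of these genes, but Rpl10l, Rpl3l and Rpl39l, with 6, 130 and 155 UMIs, were too low to show a difference.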

Other observations

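Across the cells of a sample, the share of UMIs in ribosomal protein genes had a negative Spearman coefficient with the score of G2/M genes in 9 of 9 samples, from -0.399 in young replicate 1 to -0.072 in aged replicate 3, and with the score of S phase genes, from -0.308 to -0.032. The coefficients of batch 1 ran from -0.399 to -0.078 and those of batch 2 from -0.191 to -0.072 for G2/M. These are descriptions over cells that share a library, and depth was not held constant.

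Outside the 83 genes, of 77 mitochondrial ribosomal protein genes tested in CASIN against young HSC-1-like cells, 5 were lower and 1 higher, against 12.7% of all genes called in either direction by edgeR's quasi-likelihood test: Mrps35 (-0.53), Mrpl13 (-0.43) and Mrps28 (-0.43) were among the lower ones and Mrpl52 (0.44) was the higher one. In aged against young HSC-1-like cells 1 of 77 passed, Mrpl18, which was lower (-0.51, SE 0.11, adjusted p = 0.0122).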
